A study of Solanum lycopersicum with 39 samples.

Results

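The step from short to long heat was followed in leaves of the tomato cultivar M82, by comparing 3 libraries taken after 12 h at 42 °C with 3 libraries taken after 4 h at 42 °C. These 6 libraries are part of the 18 in the heat experiment, which also sampled leaves at 0 h, 2 h and 24 h and after 1 day of recovery, and with the drought experiment the study holds 39 libraries. Both groups are untransformed M82 plants grown at 25 °C and 70% relative humidity with 16 h of light and 8 h of dark, and moved to 42 °C and 90% relative humidity, so heat and humidity rose together in both. The sample labels give an age of 38 days, while the study's methods give an earlier day. The libraries are called biological replicates, with no mention of shared plants or batches. Clock times of sampling are not given, so the additional 8 h of heat and a later time of day cannot be told apart, and no untreated leaves of the later hours were among the samples. Genes with at least 1 FPKM (fragments per kilobase of transcript, scaled to the total of the library) in at least 3 of the 18 heat libraries were tested, which kept 18923 of 34075 genes. A gene was called at an adjusted p of 0.05 or less (limma on log2(FPKM + 1), Benjamini-Hochberg over all genes tested) and a log2 fold change of 1 or more, or -1 or less. All log2 fold changes below are on that scale, 12 h minus 4 h, and understate changes of genes near 0.

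Leaves meet heat in a fast phase, in which heat stress transcription factors switch on genes of chaperones that bind unfolded proteins, and in a slower phase in which growth, photosynthesis and hormone pathways are reset. The photosynthetic antenna consists of chlorophyll-binding proteins encoded in the nucleus, LHCb around photosystem II and LHCa around photosystem I, and the transcripts of these genes are known to follow light and the circadian clock as well as stress. Names and roles were available only for 207 genes listed in the study's own table of genes that differ between plants with more and with less of the B-box protein SlBBX31, and for genes that the study names. The lists below are therefore parts of pathways, not whole ones. Of the 207 genes, 186 were tested, 29 were called higher and 45 lower at 12 h, against 4.8% and 2.13% of all genes tested. Antenna genes made up 23 of the 45, and of the 163 others tested 22 were called lower.

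The 3 libraries of 12 h stood further apart than those of any other group of the series. The median over genes of the SD between replicates was 0.469 on the log2 scale at 12 h, against 0.318 at 4 h and 0.153 at 0 h. Across all genes tested, a line was drawn from the 4 h mean to the 24 h mean, and replicates 1, 2 and 3 of 12 h lay 32.3%, 10.5% and 61.2% of the way along it. The 4 h libraries lay at 13.7%, 14.4% and -0.5%, each measured against the mean of the other two. Replicate 2 of 12 h thus lay within the range of the 4 h libraries and replicate 3 lay past the middle. Over the 1313 genes called between 12 h and 4 h, which the 12 h values helped to choose, the same places were 73.8%, 48.6% and 86.9%. Replicate 3 was the lowest of the 12 h libraries in 75.7% of all genes tested, and its FPKM summed to 622380, against 833467 and 780611 in replicates 1 and 2. The 4 h libraries summed to 623737, 559548 and 748548. The files hold no fragment counts. Relative depth was estimated from the most frequent ratio of low values to those of replicate 1 of 4 h. It was 0.968 to 1.19 of the median library at 4 h and 0.935 to 1.14 at 12 h. These estimates are rough. For replicate 2 of 12 h the main peak of ratios had a height of 95.6 and the next peak 65.6.

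**Figure D1:**
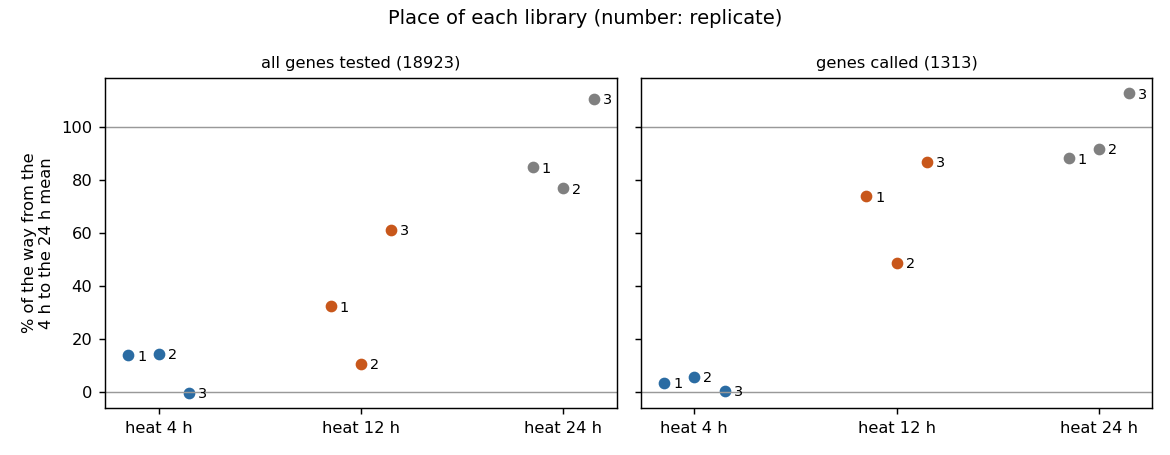
Place of each library on the line from the 4 h mean (0%) to the 24 h mean (100%), in log2(FPKM + 1), for all 18923 genes tested (left) and the 1313 genes called (right), with 1 point per library and the replicate number beside it. On the left the 12 h libraries spread from 10.5% to 61.2%, on the right from 48.6% to 86.9%.

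A total of 1313 genes (6.94% of those tested) were called between 12 h and 4 h, 909 higher (4.8%) and 404 lower (2.13%), and 5334 genes (28.2%) had an unadjusted p under 0.05. The median log2 fold change of all genes tested was 0.26, so the typical gene was listed slightly higher at 12 h. When the libraries were brought to a common scale by median ratios, the median fell to 0.009, and of 1283 genes called (6.84%) 420 were higher (2.24%) and 863 lower (4.6%). Of the 909 genes called higher, 419 were also called higher after scaling, and of the 404 called lower, 400 were also called lower. Falls were thus nearly all kept under both scales, while more rises were lost than kept. Scaling lowered the median log2 fold change by 0.25, which enlarges falls and shrinks rises. This difference between falls and rises therefore does not show that falls are firmer. The 3 libraries of 12 h lay above all of 4 h in 3389 genes (17.9%) and below them in 790 genes (4.17%), and these included 863 of the 909 and 362 of the 404 genes called. The median size was 1.69 among genes called lower and 1.39 among genes called higher, while rises of 2 or more (198) outnumbered falls of 2 or more (147). Of the lower genes, 22 fell by 4 or more, and 15 of these were antenna genes. Without replicate 1 of 12 h the calls dropped to 500 higher and 308 lower, without replicate 2 of 4 h to 569 higher, and without replicate 2 of 12 h the lower calls rose to 715. A fit to the 6 libraries alone called 154 higher and 109 lower, and kept 16.6% of the 909 rises and 26.2% of the 404 falls. It estimated the spread from fewer samples, and without the groups of lower spread, such as 0 h. Which of these lowered the number of calls was not tested.

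**Figure D2:**
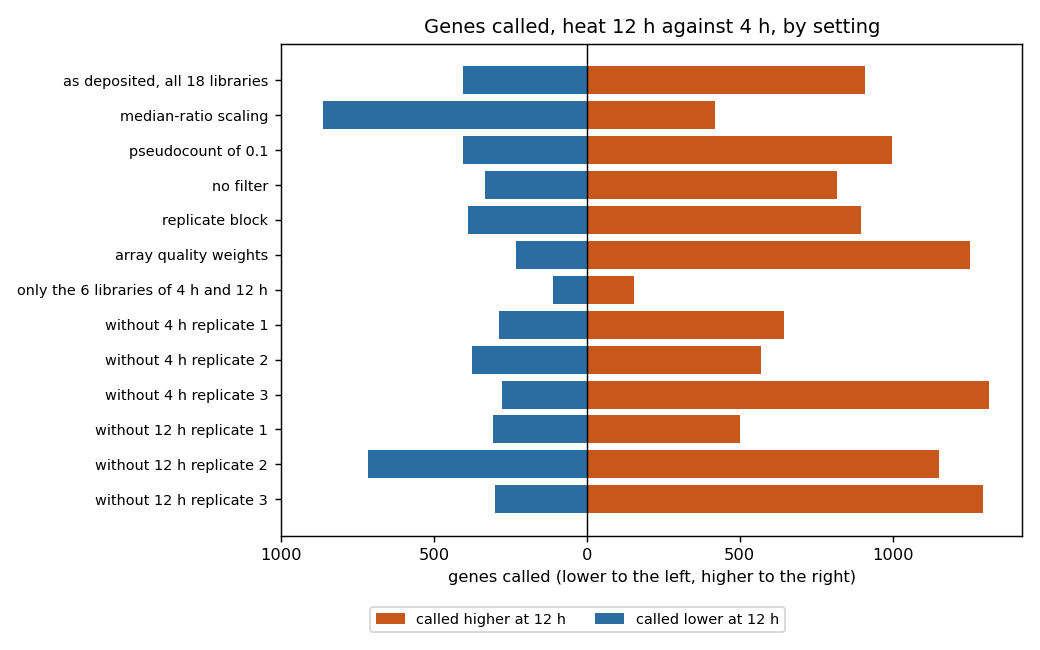
Number of genes called higher (right) and lower (left) at 12 h against 4 h under each setting, from the deposited scale with all 18 libraries in the fit (909 and 404) to fits that leave out 1 library. Median-ratio scaling is the only setting shown with more genes lower (863) than higher (420).

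For many genes the data could not separate a change from none. The 95% interval of the log2 fold change lay wholly between -1 and 1 in 8747 genes (46.2%), while 8863 genes (46.8%) were neither called nor bounded in this way. With median-ratio scaling these became 11869 (63.2%) and 5617 (29.9%).

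All 23 antenna genes were called lower at 12 h, on the deposited and on the scaled values, against 2.13% and 4.6% of all genes tested. None of the 23 overlapped between the 4 h and 12 h libraries, while 4.17% of all genes tested lay wholly below at 12 h. The median log2 fold change of the antenna genes was -4.71, against 0.26 over all genes tested. Together they held 6.29%, 4.17% and 6.23% of the summed FPKM in replicates 1, 2 and 3 of 4 h, and 0.506%, 0.425% and 0.393% at 12 h. The mean of 4 h was 5.56 ± 1.21% (SD, n = 3) and fell to 0.441 ± 0.0579% (SD, n = 3) after 12 h, with a two-sided exact permutation p of 0.1, the smallest that 3 against 3 libraries can give. The share was 5.67 ± 1.16% at 0 h, 8.25 ± 1.55% at 2 h, 0.527 ± 0.247% at 24 h and 3.28 ± 1.35% after recovery (SD, n = 3 each). The summed share of 4 h was thus near that of untreated leaves, although some single genes were lower at 4 h, such as LHCb1 Solyc02g070990.1 with a mean of 983 FPKM at 0 h and 149.6 FPKM at 4 h. The share of 12 h was near that of 24 h. These genes also mark mesophyll, the green tissue of the leaf, and in RNA from whole leaves fewer cells of a type and less RNA per cell cannot be told apart.

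The 8 genes named LHCb1, which encode the main protein of the trimeric antenna of photosystem II, fell furthest by their median. Their log2 fold changes ran from -7.40 to -5.43, with a median of -6.50, against -3.66 for the other 15 antenna genes. The largest fall among the other 15, -5.85 for LHCb3, lay within the LHCb1 range. LHCb1 Solyc02g071000.1 measured 864, 238 and 789 FPKM in the 4 h libraries and 1.93, 2.7 and 2.12 FPKM at 12 h (log2 fold change -7.40, SE 0.712, adjusted p = 1.264e-05). LHCb1 Solyc02g070940.1, the highest of the 8 at 4 h, went from 3229, 2061 and 3836 FPKM to 31.2, 77.2 and 14.5 FPKM. As a group the LHCb1 genes held 1.65 ± 0.512% of the summed FPKM at 4 h, which left 0.0155 ± 0.00724% after 12 h (SD, n = 3). Their names are the same and their IDs are neighbours, and the authors placed each read once, so how the fall divides among the 8 is uncertain.

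The other genes named LHCb fell by different amounts. LHCb2 Solyc07g047850.3, a partner of LHCb1 in the trimer, went from 4566, 3055 and 5827 FPKM at 4 h to 133, 244 and 41.0 FPKM at 12 h (log2 fold change -5.29, SE 0.556, adjusted p = 2.466e-05). LHCb3 Solyc07g063600.3, the third trimer protein, fell by 5.85 on the log2 scale, from 986, 451 and 1337 FPKM to 12.7, 31.2 and 6.12 FPKM. Both were higher in replicate 2 of 12 h than in the other two. The minor antenna proteins LHCb6 and LHCb4 link the trimers to the reaction centre, and their genes fell less. LHCb6 Solyc01g105030.3 changed by -3.06, from 1514, 909 and 1794 FPKM to 159, 217 and 122 FPKM. LHCb4 Solyc09g014520.3 changed by -1.69, from 2066, 1425 and 3048 FPKM to 891, 658 and 456 FPKM, and kept the highest 12 h level of the LHCb genes. Its call was lost without replicate 1 or without replicate 3 of 4 h (adjusted p = 0.01602 with all libraries).

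The antenna names are those of the study, and which photosystem each gene serves was not checked. Among the genes that the study names LHCa, the highest at 4 h was LHCa3 Solyc03g005760.1, with 7008, 5087 and 8084 FPKM. It fell by 3.66 on the log2 scale to 647, 571 and 387 FPKM at 12 h (SE 0.552, adjusted p = 0.00059). LHCa4 Solyc03g115900.4 fell further, by 4.53. LHCa2 Solyc10g006230.3 went from 3021, 2027 and 4102 FPKM to 882, 580.5 and 581 FPKM, a log2 fold change of -2.13. Chlorophyll a-b binding protein 6A Solyc05g056060.4 fell by 1.83 and was, with LHCb4, 1 of only 2 antenna genes whose call did not hold without each library in turn. All 23 antenna genes were lowest in replicate 2 among the 4 h libraries. Replicate 2 also had the lowest summed FPKM of the 4 h libraries (559548), and the share of all genes lowest there was not counted. Among the 12 h libraries 19 of the 23 antenna genes were lowest in replicate 3, against 75.7% of all genes tested. All 23 had a higher mean after recovery than at 24 h.

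**Figure D3:**
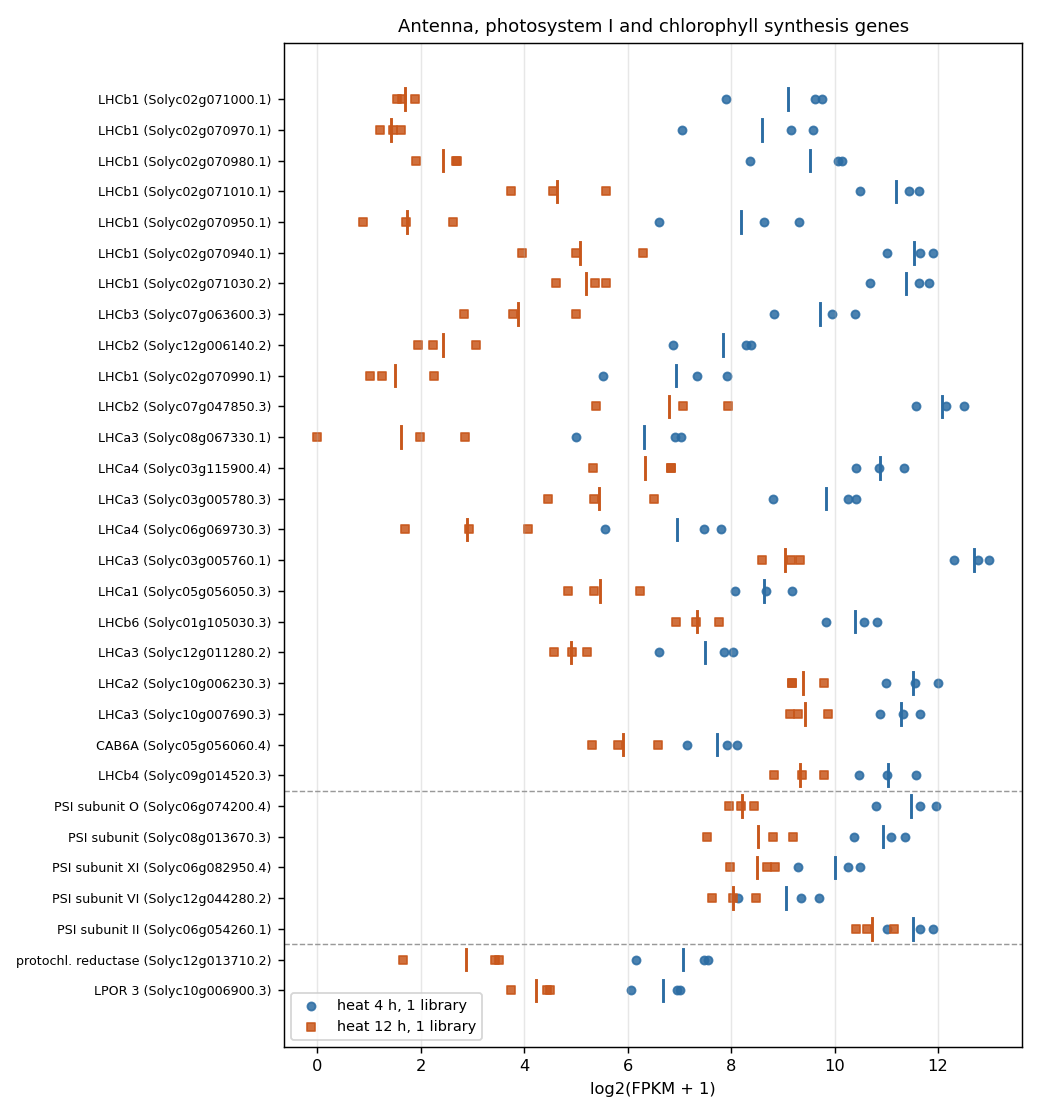
Values of the 23 antenna genes (top), 5 photosystem I genes (middle) and 2 chlorophyll synthesis genes (bottom) in log2(FPKM + 1), with circles for the 3 libraries of 4 h, squares for the 3 libraries of 12 h and ticks for group means. Within the antenna genes the groups never overlap. The LHCb1 genes show the widest gaps by their median (-7.40 to -5.43 between means), with LHCb3 inside this range.

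Of 5 genes of photosystem I subunits outside the antenna, 3 were called lower, and 4 with median-ratio scaling. Over all genes tested these shares were 2.13% and 4.6%. The median log2 fold change of the 5 was -1.5, against -4.71 for the antenna genes. Photosystem I subunit O Solyc06g074200.4 went from 3232, 1783 and 3970.3 FPKM at 4 h to 292, 349 and 249 FPKM at 12 h (log2 fold change -3.27, SE 0.556, adjusted p = 0.001489). It was the only one of the 3 whose call held without each library in turn. Subunit II Solyc06g054260.1, which forms the docking site of ferredoxin, measured 3226, 2077 and 3799 FPKM at 4 h and 2270.2, 1576 and 1366 FPKM at 12 h, which overlap (log2 fold change -0.79, adjusted p = 0.1661).

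Both listed genes of light-dependent protochlorophyllide reduction, the step of chlorophyll synthesis that needs light, were called lower (2.13% of all genes tested). Protochlorophyllide reductase Solyc12g013710.2 went from 177, 70.8 and 188 FPKM at 4 h to 9.77, 10.5 and 2.17 FPKM at 12 h (log2 fold change -4.20, SE 0.639, adjusted p = 0.0006322), after a mean of 83.7 FPKM at 0 h and 405 FPKM at 2 h. The second, Solyc10g006900.3, fell by 2.45. Both held without each library in turn. Glycolate oxidase Solyc10g007600.3, an enzyme of photorespiration, was called lower at -1.44, and this call was lost in 5 of 6 fits that leave out 1 library. The only plastid gene of this list with a log2 fold change above 1 was the inducible plastid-lipid associated protein Solyc07g064600.3, with 5693, 434 and 1618 FPKM at 12 h against 436, 253 and 953 FPKM at 4 h, and it was not called (adjusted p = 0.2194).

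**Figure D4:**
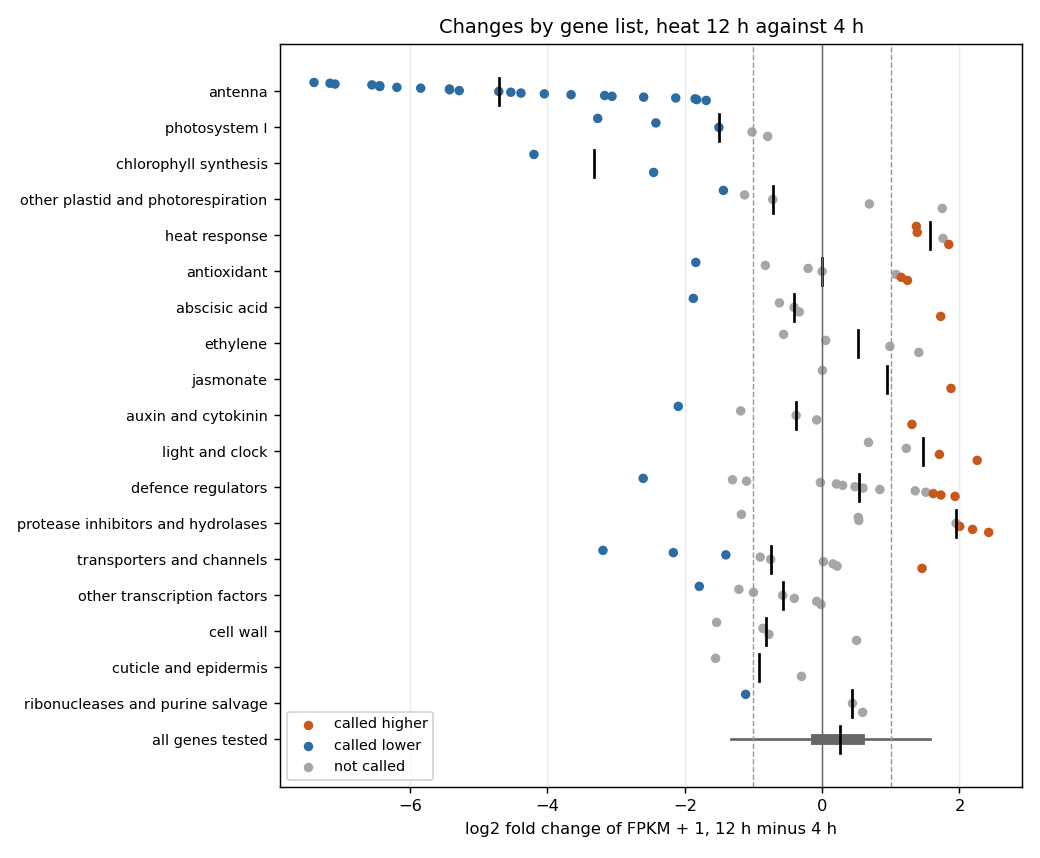
Log2 fold change of FPKM + 1 (12 h minus 4 h) of each tested gene in 18 lists, 1 point per gene, with a black tick at the median of the list. The bottom line gives all genes tested, with the range between quartiles as a thick bar, the middle 95% as a thin line and the median of 0.26 as a tick. The antenna list lies wholly to the left of -1.

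Chaperone genes were listed higher at 12 h than at 4 h. Of 4 heat-response genes, 3 were called higher on the deposited scale but only 1 (the factor HSF24) with median-ratio scaling, against 4.8% and 2.24% of all genes on these scales. The list's median log2 fold change was 1.57. HSP90 Solyc08g079170.3, a chaperone of signalling proteins, measured 44.1, 28.1 and 50.5 FPKM at 4 h and 211, 79.2 and 183 FPKM at 12 h (log2 fold change 1.84, SE 0.418, adjusted p = 0.01017). Its means were 46.6 FPKM at 0 h, 207 at 2 h and 420.2 at 24 h, so 4 h was a low point between 2 higher ones. HSP70-1 Solyc09g011030.3, another chaperone, rose from 10.8, 13.4 and 15.4 FPKM to 54.0, 17.9 and 45.4 FPKM (log2 fold change 1.37, adjusted p = 0.02037). After median-ratio scaling neither was called (adjusted p = 0.05727 and 0.1133), and leaving out replicate 2 of 4 h, or replicate 1 of 12 h, ended both calls, as leaving out replicate 1 of 4 h did for HSP70-1. The small chaperone HSP17.6 (Solyc08g062437.1) measured 39.3, 18.9 and 30.8 FPKM at 4 h and 200.4, 19.7 and 237 FPKM at 12 h, and was not called (log2 fold change 1.76, SE 0.613, adjusted p = 0.07324). Replicate 2 of 12 h was the lowest of its group in 3 of the 4 heat-response genes, against 16.5% of all genes tested, and for HSP17.6 it lay within the 4 h range.

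The heat stress transcription factor HSF24 (Solyc02g090820.3) differed from the chaperones. It measured 16.2, 11.6 and 25.5 FPKM at 4 h and 48, 57.9 and 34.2 FPKM at 12 h (log2 fold change 1.38, SE 0.303, adjusted p = 0.008178), with replicate 2 the highest. Its means at 0 h, 2 h and 24 h were 20.8, 23.2 and 15 FPKM, so its highest level was at 12 h.

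The largest rise of a named gene was that of the JmjC-domain protein JMJ524 (Solyc01g006680.4), whose domain is the catalytic part of many histone demethylases. It measured 2.43, 1.69 and 1.86 FPKM at 4 h and 107, 55.4 and 57.0 FPKM at 12 h (log2 fold change 4.57, SE 0.257, adjusted p = 3.035e-08). The means of the other groups were 0.919 FPKM at 0 h, 2.62 at 2 h, 6.86 at 24 h and 2.5 after recovery. Every 12 h library lay far above every other library of the series, and the gene was called under each alternative run.

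Of 4 light and clock regulators, 2 were called higher (4.8% of all genes), also with median-ratio scaling and without each library in turn, and the list's median was 1.47. APRR5 (Solyc03g081240.3) is named for a pseudo-response regulator that represses other clock genes in Arabidopsis. It measured 2.88, 2.51 and 1.12 FPKM at 4 h and 17.2, 12.2 and 12.1 FPKM at 12 h (log2 fold change 2.26, SE 0.352, adjusted p = 0.0007588), and its means were 0.841 FPKM at 0 h and 10.6 FPKM at 24 h. PCL1 (Solyc06g076350.3), whose Arabidopsis namesake is an evening gene of the clock, measured 0.756, 0.425 and 0.921 FPKM at 4 h and 5.96, 5.34 and 2.8 FPKM at 12 h (log2 fold change 1.71, SE 0.262, adjusted p = 0.0006871). Unlike APRR5 it was already at 3.25 FPKM at 0 h, above the 0.625 FPKM of 2 h. The B-box proteins CONSTANS-LIKE 16-like (Solyc05g009310.3) and CONSTANS-LIKE 13 (Solyc09g074560.3) had log2 fold changes of 1.23 and 0.67 and were not called. For both, replicate 3 of 12 h, with 2.77 and 22.1 FPKM, lay within the 4 h range, while replicates 1 and 2 lay above it. For these genes too, longer heat and a later hour cannot be told apart.

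**Figure D5:**
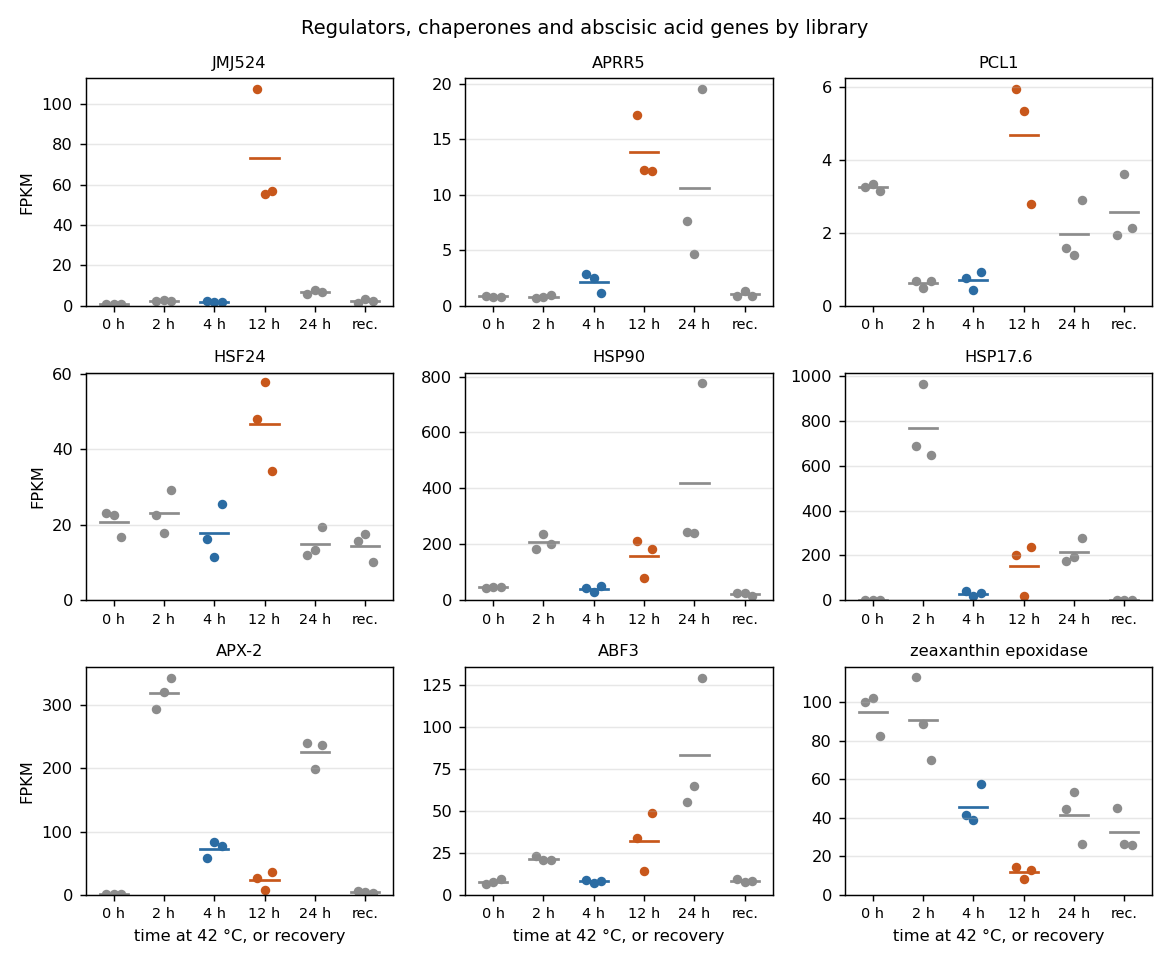
FPKM of 9 genes in the 6 groups of the heat series, 1 point per library with a line at the mean of 3, with 4 h in blue and 12 h in orange and a separate axis from 0 in each panel. JMJ524 stands at 55.4 to 107 FPKM at 12 h and HSF24 has its highest mean there, while HSP90, HSP17.6 and ABF3 show replicate 2 of 12 h lowest of its group.

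SlBBX31 (Solyc06g063280.1), the B-box protein the study is about, measured 3.28, 1.9 and 3.67 FPKM at 4 h and 0.784, 0.512 and 2.1 FPKM at 12 h, which overlap. The log2 fold change was -0.93 (95% interval -1.75 to -0.12, adjusted p = 0.1272), against a mean of 46.9 FPKM at 24 h.

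Antioxidant genes moved in both directions. Of 7 tested, 2 were called higher and 1 lower, against 4.8% and 2.13% of all genes tested. Ascorbate peroxidase APX-2 (Solyc09g007270.3), which removes hydrogen peroxide with ascorbate, measured 58.7, 83.3 and 77.4 FPKM at 4 h and 26.5, 7.33 and 36.5 FPKM at 12 h (log2 fold change -1.84, SE 0.4, adjusted p = 0.007917), and was also called lower with median-ratio scaling. Its means were 1.43 FPKM at 0 h, 319.6 at 2 h and 226 at 24 h, so 12 h was a low point within the heat treatment. Superoxide dismutase SOD2 (Solyc06g048410.4), which turns superoxide into hydrogen peroxide, measured 149, 156 and 182 FPKM at 4 h and 463, 298 and 412 FPKM at 12 h (log2 fold change 1.24, SE 0.218, adjusted p = 0.001886). Peroxidase 21 (Solyc09g007520.3) was called at 1.15 with at most 3.97 FPKM in any of the 6 libraries, and the call was lost in 2 of 6 fits, those that left out the first library of 4 h and the second of 12 h. Both rises were under 1 after median-ratio scaling (0.94 and 0.96).

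Abscisic acid genes split as well, with 1 of 5 tested called higher and 1 lower (4.8% and 2.13% of all genes). ABF3 (Solyc01g108080.4), a bZIP factor that acts in the abscisic acid response, measured 9.01, 7.04 and 7.91 FPKM at 4 h and 33.8, 14.1 and 48.4 FPKM at 12 h (log2 fold change 1.73, SE 0.355, adjusted p = 0.0056). It was not called with median-ratio scaling (adjusted p = 0.05803). Zeaxanthin epoxidase (Solyc02g090890.4), which makes a xanthophyll precursor of the hormone, measured 41.2, 38.6 and 57.3 FPKM at 4 h and 14.6, 8.19 and 12.7 FPKM at 12 h (log2 fold change -1.88, SE 0.297, adjusted p = 0.0008373), lower under every alternative run. Its 12 h mean of 11.8 FPKM was below the means of all other groups, 32.4 to 95 FPKM. NCED3 (Solyc07g056570.1), the enzyme of the committed step of synthesis, measured 19.5, 13.2 and 64.7 FPKM at 4 h and 37.1, 3.71 and 44.6 FPKM at 12 h. Its log2 fold change of -0.41 had a 95% interval of -2.03 to 1.21, so a change of either direction could not be told from none. Replicate 2 of 12 h was the lowest of its group in 4 of the 5 genes.

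None of 4 ethylene genes was called (limma, adjusted p from 0.05293 to 0.9405), against 6.94% of all genes tested in either direction. The oxidase genes of the last step of ethylene synthesis had positive log2 fold changes, 1.41 for 1-aminocyclopropane-1-carboxylate oxidase 1 (Solyc07g049530.3) and 0.99 for ACO4 (Solyc02g081190.4), with 107, 103 and 146 FPKM at 4 h and 217, 339 and 173 FPKM at 12 h for ACO4. The synthase ACS6 (Solyc08g081550.4) and the factor ERF5 (Solyc03g093560.1) had 0.05 and -0.56. LOX1 (Solyc08g029000.3), a lipoxygenase, was called higher at 1.88 (adjusted p = 0.03933), but with 0.326, 2.52 and 3.51 FPKM at 4 h and 8.74, 23.9 and 3.29 FPKM at 12 h the groups overlap, and the call was lost with median-ratio scaling and in 4 of 6 fits that leave out 1 library. LOG8 (Solyc08g062820.3), which releases active cytokinin, rose from 7.01, 7.77 and 10.4 FPKM to 20.8, 25.3 and 20.3 FPKM (log2 fold change 1.31, SE 0.235, adjusted p = 0.002263), while its means in the other 4 groups were 5.93 to 9.59 FPKM. SAUR50 (Solyc01g110570.3), an auxin-response gene, was called lower at -2.10 but overlapped, with 0, 5.76 and 0 FPKM at 12 h, and 4 of 6 such fits lost the call.

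Of 7 protease inhibitors and hydrolases tested, 3 were called higher and none lower, with a list median of 1.95, and of 14 defence regulators 3 were called higher and 1 lower, with a median of 0.54. Over all genes tested 4.8% were called higher and 2.13% lower, and with scaling 2.24% and 4.6%. The acidic 26 kDa endochitinase (Solyc02g082920.4), which cuts chitin of fungal walls, measured 374, 209.7 and 158 FPKM at 4 h and 813, 2428 and 984 FPKM at 12 h (log2 fold change 2.43, SE 0.422, adjusted p = 0.001741), and its highest mean outside 12 h was 409.9 FPKM at 24 h. Endochitinase 3-like (Solyc10g055820.3) rose from 1.81, 0.758 and 0.956 FPKM to 14.7, 6.52 and 6.80 FPKM (log2 fold change 2.19, adjusted p = 0.01493), and its call was lost in 2 of 6 fits, those that left out the second library of 4 h and the first of 12 h. The kunitz trypsin inhibitor 2-like gene (Solyc03g098740.1), of a family that blocks digestive proteases, was called at 2.00, and not with median-ratio scaling (adjusted p = 0.09174) or in 4 of 6 fits that leave out 1 library. Aspartic protease inhibitor 1 (Solyc03g098780.2) had a change of like size, 1.95, but ranged from 786 to 6415 FPKM at 12 h and was not called (adjusted p = 0.117).

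The receptor-like protein EIX1 (Solyc07g008620.1), of the family that binds fungal xylanase in tomato, measured 0.501, 1.55 and 3.01 FPKM at 4 h and 10.6, 7.96 and 7.27 FPKM at 12 h (log2 fold change 1.94, SE 0.363, adjusted p = 0.003063). SAR DEFICIENT 1-like (Solyc12g036390.2), whose Arabidopsis namesake promotes salicylic acid synthesis, measured 0.739, 1.17 and 3.06 FPKM at 4 h and 5.14, 12.1 and 5.93 FPKM at 12 h (log2 fold change 1.73, SE 0.326, adjusted p = 0.00328). Both were low at 24 h, with means of 0.379 and 0.749 FPKM, and both held with median-ratio scaling. A second gene of this name in the list, SAR DEFICIENT 1 (Solyc03g119250.4), had higher FPKM and was not called. It measured 5.70, 9.04 and 42.5 FPKM at 4 h and 12.1, 20.7 and 14.8 FPKM at 12 h (log2 fold change 0.21, adjusted p = 0.82). WRKY transcription factor 45 (Solyc08g067360.3) was called at 1.62 but overlapped, and the call was lost in 4 of 6 fits that leave out 1 library. DEA1 (Solyc08g078900.1), a gene named for induction by arachidonic acid, was called lower at -2.61 with 0.329, 18.3 and 0 FPKM at 12 h, again with replicate 2 within the range of 4 h, and lost the call in 4 of 6 such fits. Replicate 2 of 12 h was the highest of its group in 11 of the 14 defence regulators, against 37.3% of all genes tested.

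Of 9 transporter genes tested, 3 were called lower and 1 higher, with a list median of -0.75, where 2.13% of all genes tested were called lower and 4.8% higher. The MtN21 family gene Solyc05g005870.3, of a family with amino acid exporters in Arabidopsis, measured 4.53, 8.37 and 16.5 FPKM at 4 h and 0.0376, 0.147 and 0 FPKM at 12 h (log2 fold change -3.19, SE 0.414, adjusted p = 0.0001679), and remained at a mean of 0.0348 FPKM at 24 h. The sulfate transporter 3.1-like gene (Solyc06g084140.4) went from 23, 9.64 and 18.2 FPKM to 4.75, 2.14 and 1.99 FPKM (log2 fold change -2.17, SE 0.443, adjusted p = 0.005528). The amino acid transporter AVT1C (Solyc03g063040.4) fell by 1.40, a call lost without replicate 3 of 4 h and with a pseudocount of 0.1. The hexose transporter (Solyc09g075820.3) was called higher at 1.45 with overlapping groups, and lost this call in 4 of 6 fits that leave out 1 library.

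Other named genes with large changes had no list of their own. The alpha amylase inhibitor/lipid-transfer gene Solyc01g090965.1 went from 112, 35 and 101 FPKM to 3.44, 17.55 and 1.23 FPKM (log2 fold change -3.71, adjusted p = 0.002852), and SRG1 (Solyc02g071380.2) from 22.8, 12.1 and 16.9 FPKM to 3.14, 2.16 and 0.652 FPKM (log2 fold change -2.67, adjusted p = 0.001388). The bZIP factor basic leucine zipper 61-like (Solyc07g062710.4) fell by 1.79 and ribonuclease LX-like (Solyc07g006550.2) by 1.11, and leaving out 1 library ended these calls in 3 and in 5 of 6 fits. Among enzyme genes, cytochrome P450 81D1-like (Solyc02g092860.3) went from 1.92, 5.24 and 4.27 FPKM to 31.4, 29.9 and 17.64 FPKM (log2 fold change 2.54, adjusted p = 0.001319). Anthocyanidin reductase (Solyc10g150105.1), which makes flavanols, went from 0.449, 1.16 and 1.29 FPKM to 8.68, 4.66 and 10.3 FPKM (log2 fold change 2.14, SE 0.268, adjusted p = 0.0001271). The FAD-dependent urate hydroxylase-like gene (Solyc08g078040.4) went from 3.72, 9.41 and 11.4 FPKM to 58.8, 34.3 and 38.3 FPKM (log2 fold change 2.37, adjusted p = 0.001359). All 3 held with median-ratio scaling and without each library in turn. The uncharacterized proteins Solyc09g005730.4 and Solyc02g067810.1 completed the 10 largest named rises without overlap, at 2.21 and 2.18.

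The leaf epidermis was followed by 4 cuticle genes, of which 2 were tested and none was called, against 6.94% of all genes tested. 3-ketoacyl-CoA synthase 6 (Solyc05g009270.4), an enzyme of wax synthesis in the epidermis, measured 15.3, 6.55 and 9.59 FPKM at 4 h and 2.31, 12.9 and 0.123 FPKM at 12 h. The summed FPKM of all 4 cuticle genes was 7.92 to 16.6 at 4 h and 1.23 to 14.5 at 12 h, and their part in the changes above was not tested. SlActin7 (Solyc03g078400.3), the reference gene of the study's qRT-PCR, had a log2 fold change of 0.34 on the deposited scale and 0.04 with median-ratio scaling (adjusted p = 0.38 and 0.932).

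Most of the largest rises lay in genes without a name in the sources used here. Of 15 genes that rose by 4 or more, 1 (JMJ524) had a name. Solyc12g100240.1 was listed at 0 FPKM in all 4 h libraries and at 181, 1314 and 254 FPKM at 12 h, and was listed at 0 in every other group. Solyc08g043190.1 was listed at 0 at 4 h and at 71.0, 189.5 and 101 FPKM at 12 h, but also at a mean of 81.2 FPKM at 0 h. A 0 in these tables can be a failed estimate, so no fold is given for either. Among falls, Solyc08g067320.3 went from 228, 60.4 and 186 FPKM to 2.46, 3.30 and 0 FPKM, and Solyc02g071020.3 from 95.8, 47.2 and 128 FPKM to 1.48, 0.933 and 0.418 FPKM (log2 fold change -5.48, SE 0.397, adjusted p = 8.053e-07). The ID of the first lies next to that of the antenna gene LHCa3 Solyc08g067330.1. That of the second lies among those of the LHCb1 genes. Each may thus share reads with antenna genes.

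Set beside the other groups, the genes called higher had a median of their mean FPKM of 8.01 at 4 h, 27.5 at 12 h and 24.4 at 24 h, with 8.97 at 0 h, 12.0 at 2 h and 7.14 after recovery. For the genes called lower these medians were 17.7 at 4 h, 3.89 at 12 h and 3.00 at 24 h, with 24.3 at 0 h, 20.2 at 2 h and 10.3 after recovery. The 4 h and 12 h values are those that chose the genes, and no test was made between these medians.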

How the data were processed

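Values of the heat experiment were used as FPKM, 1 per gene and library, as the authors deposited them. Per the study's methods, reads were trimmed with Trimmomatic v0.39, aligned with TopHat2 v2.1.1 (1 place per read, stranded) to the genome with annotation ITAG 4.0, and quantified with Cuffdiff of Cufflinks v2.2.1. Cuffdiff values of near-identical genes are uncertain. FPKM are not counts, so limma 3.58.1 (R 4.3.3, with trend) was run on log2(FPKM + 1) of all 18 heat libraries, with 12 h against 4 h as contrast. With 3 libraries a group, p-values rest on 1 spread per gene, pooled over all 6 groups of the heat series. The median SD was 0.469 at 12 h, 0.318 at 4 h and 0.344 at 24 h. It was 0.153 at 0 h, 0.23 at 2 h and 0.277 after recovery. The pooled spread can thus be too small for 12 h against 4 h, and the p-values too low. The fit was tested on simulated data of 18923 genes: 65 of 100 genes changed by 1.5 and 91 of 100 changed by 3 (log2) were recovered, with 6 calls among 18723 unchanged genes. The simulation gave each gene the same spread in every group and no shift of whole libraries. Changed genes were drawn only from those with a mean log2(FPKM + 1) above 3 at 4 h. It thus checks the code, and does not give the error rates of the real comparison. The members and lists were chosen with earlier results of these data known. Named genes were members of functional lists (called ones first), the 10 largest named rises and falls without overlap, and at most 2 unnamed genes a direction. Of the gene IDs, 0 matched the RefSeq table at hand, so no sequences or coordinates are given. The drought table was not used here.

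Alternatives were median-ratio scaling, a pseudocount of 0.1, no filter, only the 6 libraries, the replicate number as a block, array quality weights, each library left out, no minimum fold change, and the log2 ratio of mean FPKM. The place of libraries over all genes tested, library 3 of 12 h and 24 h left out together, and median-ratio scaling with library 2 or 3 of 12 h left out were added after seeing the data.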

Additional observations from a re-analysis of the deposited data

How the results depend on the processing

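Counts of calls depended on the scale and on single libraries, as given above: with the deposited values 1313 genes were called, 909 higher and 404 lower. Median-ratio scaling gave 420 higher and 863 lower, array quality weights (whose estimate stopped before its tolerance was met) 230 lower, and the 6 libraries alone 263 in all, 154 higher and 109 lower, with 28 list members called against 55 and 38 against 67 of the genes given by name or ID in the text. No minimum fold change gave 2109 in all and 1664 higher. Leaving out 1 library gave 808 to 1866 in all, 500 to 1316 higher and 276 to 715 lower. Of alternatives chosen after seeing the data, library 3 of 12 h and 24 h left out together gave 1458 higher, median-ratio scaling without library 2 of 12 h gave 2099 in all and 1355 lower, and without library 3 of 12 h 826 in all and 248 higher. The difference in the antenna share of summed FPKM (-5.12 percentage points) became -0.969 when the 50 highest genes of each library were left out, which by construction removes the highest antenna genes at 4 h and none at 12 h and so does not bear on the fall. The cause of the other shifts was not tested. Of these 67 genes, a subset of all annotated genes called, with 4 unnamed ones, 32 falls and 17 rises held without each library in turn. With median-ratio scaling 42 of 42 falls and 18 of 25 rises held, but the scaling itself enlarges falls and shrinks rises.

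Of the 86 genes followed through the alternatives, direction turned for 3, none of them called. Among annotated genes outside these 86, others near 0 turned as well, such as SAR DEFICIENT 1 (Solyc03g119250.4). NCED3 ran from -0.998 to 0.64 without 1 library (positive without 4 h replicate 3, 0.239, or 12 h replicate 2) and became 0.416 with scaling and without library 2 of 12 h. ACS6 became -0.163 with scaling, -0.146 as the log2 ratio of mean FPKM, -0.132 and -0.484 with scaling and without library 2 or 3 of 12 h, -0.079 with library 3 of 12 h and 24 h left out, and -0.217 to 0.561 without 1 library. SlActin7 became -0.009 with scaling and without library 3 of 12 h. Whether replicate numbers pair the samples could not be decided, as the labels name no pairing. Deviations of same-numbered libraries correlated at -0.218, -0.096 and -0.046, and those of differently numbered libraries at -0.071 to 0.154. Deviations from a mean of 3 are tied to one another, so these values do not settle it. The replicate block gave 896 higher and 389 lower. The FPKM tables hold no fragment counts, so the precision of low values is not known, and with 3 libraries a group no exact permutation test can go below 0.1.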
